A study of Sus scrofa with 6 samples.

Results

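A set of 10 genes that mark endothelial cells or build the contacts between them was followed in pig lungs around birth, namely PECAM1, CDH5, CLDN5, ESAM, VWF, ERG, EMCN, ROBO4, SOX17 and SOX18. They were chosen by name, with earlier results of these data known. Of the 10, 6 (PECAM1, CLDN5, ESAM, ERG, EMCN and ROBO4) could be tied to a row of the table of 14579 mRNAs. The symbols CDH5, VWF, SOX17 and SOX18 matched no row, so these 4 genes were not analysed here. Lung tissue came from female hybrid piglets with a Tibetan sire line and a Meishan dam line. Fetal1, Fetal2 and Fetal3 were taken on the last day before birth from 3 sows, and Neonatal1, Neonatal2 and Neonatal3 were taken 2 days after birth from another 3 sows. Neither group received an experimental treatment, and all pigs were killed by exsanguination after a ketamine injection. The study names both caesarean and parturition, without stating how each group was delivered. Each library holds 1 piglet, and whole tissue was used without sorting of cells. Values of single libraries are given below in the order of these numbers, and standard deviations are over the 3 libraries of a group.

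Endothelial cells line every blood and lymph vessel, and in the lung their capillaries form the inner face of the gas-exchange barrier. Neighbouring cells are sealed by tight junctions, in which claudins span the membrane, and held together by adherens junctions and by adhesion molecules such as PECAM1 and ESAM. The identity of the cells is kept up by transcription factors of the ETS family, such as ERG, and of the SOX family. At birth the lung fills with air, vascular resistance drops and the blood flow through these capillaries grows, which is the setting in which the fetal and the neonatal group are compared.

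The surfactant genes SFTPC and SFTPB, which define distal lung, were high in all 6 libraries, with SFTPC between 3171 and 8790 FPKM and SFTPB between 621 and 1130 FPKM. FPKM (fragments per kilobase, scaled to the mapped fragments of a library) is corrected for transcript length, so levels can be set side by side between genes, but the table gives no read counts, and the read totals that the study states per library do not give counts per gene, so values carry no counting interval here. The summed FPKM of all mRNAs was 425272, 339491 and 471220 in the fetal libraries and 491548, 603756 and 777982 in the neonatal ones. Every neonatal sum was thus above every fetal sum, and the FPKM values below are not rescaled to it unless stated. The median difference of all mRNAs between the groups was 0.13 on the log2(FPKM + 1) scale and -0.0090 after median-of-ratios scaling of the libraries, so a difference near 0.13 is where an average gene lies.

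In both groups the 6 genes kept the same order of mean FPKM, with CLDN5 first, followed by PECAM1, EMCN, ERG, ESAM and ROBO4. In the fetal group the means were 229 ± 33.6 FPKM for CLDN5, 130 ± 10.3 for PECAM1, 81.2 ± 20.0 for EMCN, 13.9 ± 1.83 for ERG, 9.19 ± 3.31 for ESAM and 5.03 ± 0.441 for ROBO4 (SD, n = 3 each). The ranges of ERG and ESAM over the libraries overlapped in both groups, although within each of the 6 libraries ERG was above ESAM. The ranges of all other neighbours in the order were apart in both groups. CLDN5, PECAM1 and EMCN lay above 98.6%, 96.9% and 94.4% of all mRNAs in mean level, whereas ROBO4 lay near the middle, above 47.5% of them.

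**Figure D1:**
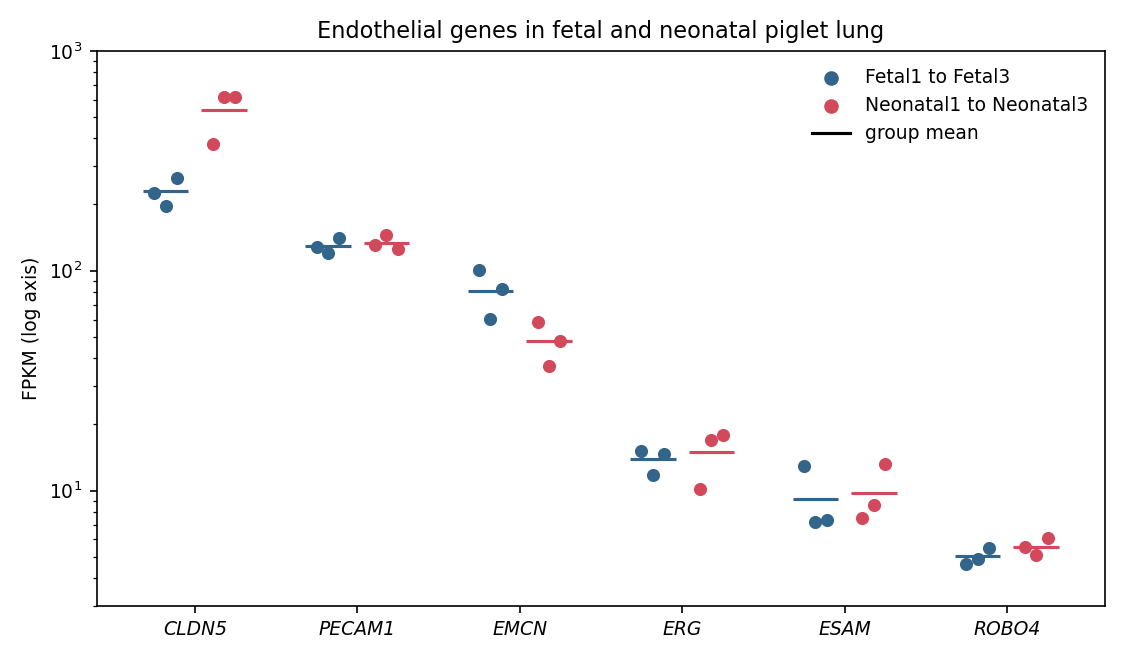
FPKM (log axis) of the 6 endothelial genes in the 3 fetal and 3 neonatal libraries, 1 point per library, with a line at the group mean. The points of CLDN5 and EMCN do not overlap between the groups, with CLDN5 higher and EMCN lower in the neonatal group, while the points of PECAM1, ERG, ESAM and ROBO4 overlap.

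CLDN5 encodes claudin-5, the main claudin of endothelial tight junctions. It was measured at 225, 198 and 265 FPKM before birth, and after birth the libraries read 377, 616 and 617 FPKM. Every neonatal value was above every fetal value, and Neonatal1 was the lowest of its group. The neonatal mean, 537 ± 138 FPKM (SD, n = 3), was 2.34 times the fetal mean. On the log2(FPKM + 1) scale the difference was 1.197 (standard error 0.30, 95% interval 0.50 to 1.90), with an adjusted p of 0.0585 in limma over all mRNAs, just outside the threshold of 0.05. The call depended on the setting: it was made at an adjusted p of 0.0498 when mRNAs of low FPKM were left out, 0.0393 without a mean-variance trend and 0.0335 without Neonatal1, and it was not made without any other single library, at 0.118 to 0.203. Under quantile normalization the difference was 0.61.

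EMCN encodes endomucin, a heavily glycosylated membrane protein of capillary and venous endothelium. Its fetal values were 101, 60.6 and 82.6 FPKM, and its neonatal values were 58.6, 37.1 and 48.2 FPKM. All neonatal values were below all fetal values, but the gap was narrow, since Fetal2 at 60.6 FPKM stood close to Neonatal1 at 58.6 FPKM. The neonatal mean of 47.9 ± 10.8 FPKM (SD, n = 3) was 0.590 times the fetal mean. The difference on the log2(FPKM + 1) scale was -0.74 (standard error 0.26, 95% interval -1.36 to -0.13) and did not pass the threshold (adjusted p = 0.141 in limma). After quantile normalization it was -1.08, with an adjusted p of 0.0485.

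Both CLDN5 and EMCN took their symbol from a supplementary list of the study, which holds genes called different between these same libraries. Of the 362 mRNAs that could be named in this way alone, 71.5% had an unadjusted p under 0.05 in limma, against 25.5% of the 9478 mRNAs named by the reference table, and in 73.5% the groups did not overlap. The threshold was passed by 24.9% of the former and 7.47% of the latter. The differences of CLDN5 and EMCN are therefore a description and not independent evidence of a change. The other 4 genes were named by the reference table, without regard to how they behaved.

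PECAM1, an adhesion molecule concentrated at endothelial cell contacts and also carried by platelets and leukocytes, was the steadiest of the 6 in unscaled FPKM. The fetal libraries had 129, 120 and 140 FPKM, and the neonatal libraries had 131, 145 and 125 FPKM. The neonatal values lay within or just above the fetal range, and the coefficient of variation was 7.97% in the fetal and 7.65% in the neonatal group. The difference of 0.047 (95% interval -0.41 to 0.50, adjusted p = 0.902 in limma) turned to -0.13 after median-of-ratios scaling and to -0.38 after quantile normalization. Without rescaling of the libraries, the interval corresponds to a neonatal level between 0.753 and 1.42 times the fetal level. Larger changes fall outside it, but it does not cover the choice of scaling. Leaving out Fetal2 or Neonatal2 gave -0.0077 and -0.013.

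ESAM, an adhesion molecule of endothelial tight junctions and platelets, varied most within a group, with coefficients of variation of 36.0% and 31.2%. Fetal1, at 13.0 FPKM, and Neonatal3, at 13.3 FPKM, were high, and the other libraries lay between 7.19 and 8.61 FPKM. As each group held 1 high library, the groups overlapped over nearly their whole range. Its difference was 0.093 (95% interval -0.59 to 0.78, adjusted p = 0.868 in limma), and it was -0.067 after median-of-ratios scaling and -0.10 after quantile normalization. It also fell below 0 without Fetal2 (-0.041), Fetal3 (-0.024) or Neonatal3 (-0.13).

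ERG, the ETS-family transcription factor of mature endothelium, had 15.2, 11.8 and 14.6 FPKM before birth against 10.17, 16.9 and 17.9 FPKM after it. The neonatal group held both the lowest and the highest value. The difference was 0.075 (95% interval -0.50 to 0.65, adjusted p = 0.873 in limma). It was -0.092 after median-of-ratios scaling and -0.14 after quantile normalization. Without Neonatal1 it was 0.31 (adjusted p = 0.312), and without Fetal2, Neonatal2 or Neonatal3 it was -0.030, -0.026 and -0.064, so its direction was not fixed by these libraries.

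ROBO4, the endothelial receptor of the Roundabout family, had the lowest level, at 4.66, 4.92 and 5.52 FPKM before and 5.52, 5.08 and 6.07 FPKM after birth. Fetal3 and Neonatal1 were nearly equal, and the groups overlapped. Its difference of 0.12 (95% interval -0.29 to 0.53, adjusted p = 0.701 in limma) was close to the median of all mRNAs, and it was -0.029 after median-of-ratios scaling and -0.013 after quantile normalization.

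Of the 6 genes, 0 passed the threshold in limma, against a background of 6.87% of all 14579 mRNAs (5.41% of all were higher after birth, 1.45% lower). For CLDN5 and EMCN, 2 of the 6, the unadjusted p was under 0.05, as it was for 24.2% of all mRNAs. The groups did not overlap for the same pair, where the background was 30.5% of all mRNAs (20.9% higher, as CLDN5 was, and 9.64% lower, as EMCN was). Among the 4 genes named by the reference table, 0 passed, and the values overlapped between the groups in each of them, while 33.6% of all mRNAs named in that way were without overlap. The median difference of the 6 genes was 0.084 on the log2(FPKM + 1) scale, beside the 0.13 of all mRNAs, and it was -0.079 after median-of-ratios scaling. These are differences in RNA of whole tissue, in which fewer endothelial cells and less RNA per cell cannot be told apart.

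**Figure D2:**
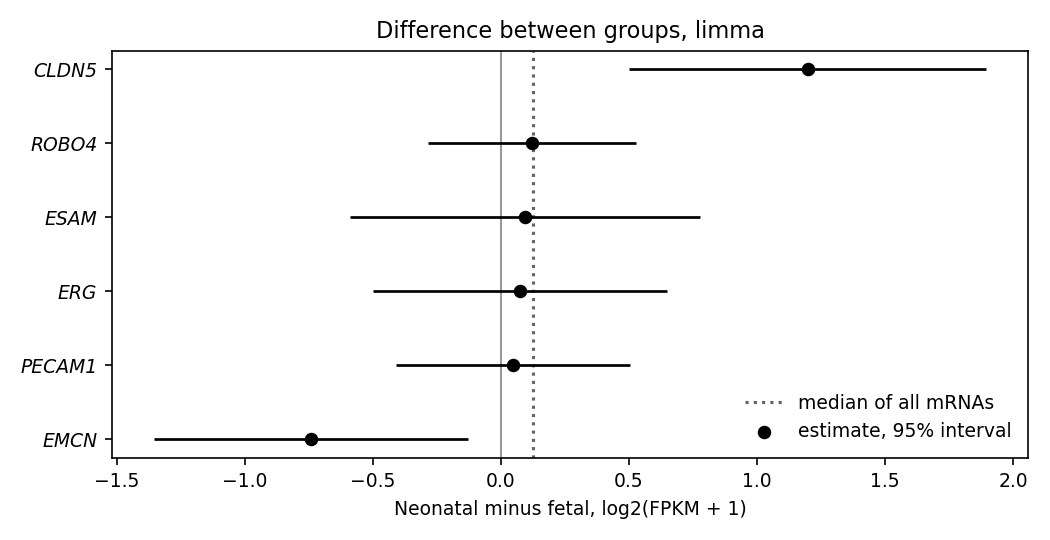
Difference between the neonatal and the fetal group on the log2(FPKM + 1) scale for the 6 endothelial genes, with the 95% interval from limma as bars and the median of all mRNAs as a dotted line. The intervals of PECAM1, ERG, ESAM and ROBO4 include 0 and the dotted line, while CLDN5, at 1.197, and EMCN, at -0.74, lie on opposite sides.

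To set aside how much endothelial RNA a library holds, each gene was also measured against the median of 24 other endothelial surface genes of the same library (among them TIE1, TEK, KDR, CD93 and ENG). CLDN5 stood 3.40, 3.39 and 3.39 above this median on the log2(FPKM + 1) scale before birth, and the neonatal libraries had it 4.06, 4.58 and 4.62 above. The fetal libraries were thus nearly identical in this measure, and all neonatal libraries were higher, by 1.03 on average. EMCN stood at 2.25, 1.70 and 1.72 above the median in the fetal libraries and at 1.40, 0.56 and 0.96 above it in the neonatal ones, a difference of -0.91 without overlap. For each of the pair the exact permutation test gave a two-sided p of 0.1, the smallest that 3 animals against 3 allow (0.3 after Benjamini-Hochberg adjustment over the 6 genes). The differences of PECAM1, ERG, ESAM and ROBO4 were -0.12, -0.10, -0.08 and -0.05, with overlapping groups and two-sided exact permutation p values of 0.3, 0.8, 0.7 and 0.7.

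**Figure D3:**
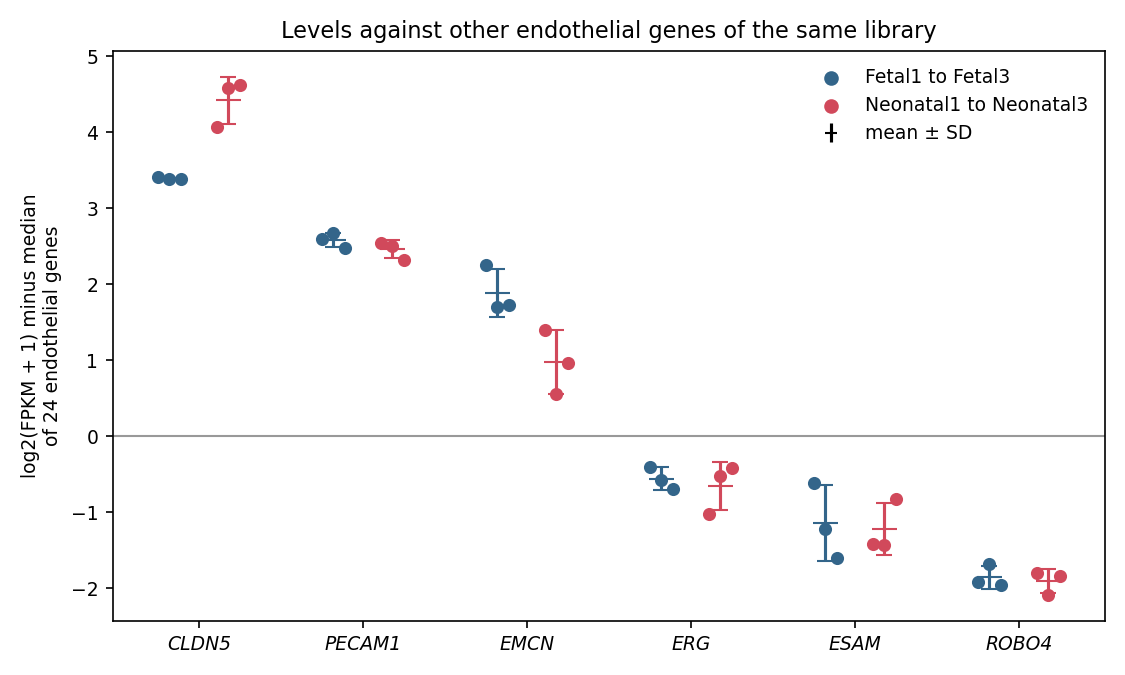
Level of each of the 6 endothelial genes minus the median of 24 other endothelial surface genes in the same library, on the log2(FPKM + 1) scale, 1 point per library with mean ± SD (n = 3). CLDN5 moves up by 1.03 and EMCN moves down by 0.91 from the fetal to the neonatal libraries, and the other genes differ by at most 0.12.

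The balance among the 6 genes is described by shares and ratios that were chosen after the values were seen. CLDN5 made up 46.2%, 49.2% and 51.4% of the summed FPKM of the 6 genes before birth, which compares with 63.9%, 74.3% and 74.5% after it. The share of EMCN was 20.6%, 15.1% and 16.0% in the fetal and 9.94%, 4.47% and 5.82% in the neonatal libraries. There were 2.24, 3.27 and 3.21 FPKM of CLDN5 for each FPKM of EMCN in the fetal libraries, against 6.43, 16.6 and 12.8 in the neonatal ones. By contrast, the ratio of ERG to PECAM1 was 0.107 ± 0.0102 and 0.112 ± 0.0328, and that of ROBO4 to PECAM1 was 0.0388 ± 0.00243 and 0.0419 ± 0.00676 (SD, n = 3 each), fetal before neonatal.

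Around these genes, 8 lists of related endothelial and junction genes were described from the same fit, without a test of any list as a whole. Of the 168 distinct genes listed, 126 were matched to a row and 11 of them passed the threshold, 6 higher and 5 lower in the neonatal group, which is 8.73% against the 6.87% of all mRNAs. The count of calls over the lists, which can include other genes than these 11, was 1, 0 and 3 without Fetal1, Fetal2 or Fetal3, and 7, 1 and 2 without Neonatal1, Neonatal2 or Neonatal3. Each of the 11 genes lost its call without at least 1 library, with a highest adjusted p between 0.0667 for ROBO1 and 0.161 for CALCRL. CALCRL, CLDN8, LYVE1 and THY1 lost it whichever library was left out, with lowest adjusted p values of 0.0590, 0.0720, 0.0756 and 0.0736 in limma.

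Of the 25 other endothelial surface genes with a row, 1 rose, 1 fell and 23 did not pass, and the median difference was -0.03. Over all mRNAs, 6.87% passed. ENG, the endothelial co-receptor for ligands of the TGF-beta family, rose from 24.6, 23.6 and 31.0 FPKM to 90.6, 64.0 and 54.8 FPKM (log2(FC) 1.35, adjusted p = 0.0201 in limma). Under quantile normalization ENG did not pass (1.03, adjusted p = 0.0820). CALCRL, the receptor of adrenomedullin together with RAMP2, fell from 219, 207 and 240 FPKM to 121, 110 and 133 FPKM (log2(FC) -0.87, adjusted p = 0.0491), and quantile normalization gave -1.35 (adjusted p = 0.0125). Both genes were without overlap between the groups, as were 10 of the 25 in all (6 higher, 4 lower), against 30.5% of all mRNAs. The receptor TIE1, which is found on nearly all endothelium, had 25.6 ± 2.26 and 23.8 ± 1.75 FPKM (SD), a difference of -0.10 with an adjusted p of 0.733 in limma. Summed over the 25 genes, the level was 1178 ± 132 FPKM before and 1224 ± 90.3 FPKM after birth (SD), with a two-sided p of 0.7 by exact permutation. This sum and the marker sums below were not rescaled to the summed FPKM of all mRNAs. That total was higher in every neonatal library than in every fetal library. After median-of-ratios scaling the log2 difference of the sum over the 25 genes was -0.12.

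None of the 15 endothelial transcription factors with a row passed in limma, and their median difference was 0.03. Of them, 5 had an unadjusted p under 0.05, as had 24.2% of all mRNAs. After median-of-ratios scaling 1 passed and after quantile normalization 2. EPAS1, the hypoxia-inducible factor subunit of endothelium and other lung cells, had the highest level, at 144 ± 18.3 and 158 ± 72.6 FPKM (SD; adjusted p = 0.947 in limma), with Neonatal1 at 237 and Neonatal3 at 94.2 FPKM. Its difference of 0.045 turned below 0 under both other scalings, without Fetal1 (-0.061) and without Neonatal1 (-0.29). TBX3, a T-box factor that lung mesenchyme also uses, had 44.2 ± 4.55 and 32.5 ± 4.18 FPKM (SD; log2(FC) -0.43, adjusted p = 0.200 in limma), and it was 1 of the 2 that passed under quantile normalization (-0.73, adjusted p = 0.0249). The ETS factors closest to ERG in role were FLI1, at 9.91 ± 1.13 and 14.9 ± 1.33 FPKM, and ETS1, at 29.8 ± 3.40 and 40.9 ± 1.43 FPKM (SD). They had adjusted p values of 0.110 and 0.164 in limma, and both were picked out after their values were seen. FOXO1, picked out in the same way, went down from 8.52 ± 1.68 to 4.67 ± 0.950 FPKM (SD; adjusted p = 0.0924 in limma). Over the 15 genes the groups did not overlap for 3 higher and 2 lower ones, against 30.5% of all mRNAs.

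Junction partners of the 6 genes had a median difference of 0.16 over 28 genes, of which 2 rose, 1 fell and 25 did not pass. The share past the threshold over all mRNAs was 6.87%. GJA5, the connexin 40 of arterial gap junctions, rose from 11.9, 9.37 and 15.5 FPKM to 23.9, 25.0 and 30.7 FPKM (log2(FC) 1.07, adjusted p = 0.0332 in limma). CCM2, a scaffold protein that steadies endothelial junctions together with KRIT1 and PDCD10, rose from 6.67 ± 0.342 to 15.1 ± 3.10 FPKM (SD; adjusted p = 0.0244 in limma). MARVELD3, a tight junction protein of epithelium and endothelium, fell from 5.58 ± 1.79 to 1.63 ± 0.567 FPKM (SD; adjusted p = 0.0308 in limma). CTNNB1, the catenin that ties cadherins to the cytoskeleton, had 127 ± 7.07 and 143 ± 35.5 FPKM (SD; adjusted p = 0.737 in limma).

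Relatives of CLDN5 were followed in a list of epithelial junction genes. CLDN10 fell from 26.6, 14.9 and 11.7 FPKM to 3.9997, 4.16 and 4.34 FPKM (adjusted p = 0.0157 in limma), and CLDN8 from 4.17, 2.55 and 2.96 FPKM to 0.822, 1.27 and 0.181 FPKM (adjusted p = 0.0437 in limma). CLDN18, the claudin of the alveolar epithelium, had 97.4 ± 5.95 and 114 ± 35.8 FPKM, and CLDN4 had 60.8 ± 6.99 and 68.5 ± 14.7 FPKM (SD), with adjusted p values of 0.682 and 0.693 in limma. Among the 11 epithelial junction genes with a row, 0 rose, 2 fell and 9 did not pass, with a median difference of -0.05. Of all mRNAs, 5.41% passed as higher and 1.45% as lower. With pseudocounts of 0.5 or 0.1 in place of 1, CLDN8 no longer passed, at adjusted p values of 0.0519 and 0.0783.

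VWF itself was not analysed here, but 17 genes for the storage, release and turnover of its product were. Of these, 1 rose and 16 did not pass, where 6.87% of all mRNAs passed. SELP, or P-selectin, which is stored with von Willebrand factor in endothelial granules and also in platelets, rose from 0.364, 0.503 and 0.523 FPKM to 4.08, 3.49 and 1.86 FPKM (log2(FC) 1.46, adjusted p = 0.0206 in limma, and 2.47 with a pseudocount of 0.1). Of the 8 genes of the SLIT and ROBO pathway, ROBO1 alone passed, against the same share of all mRNAs. It is the relative of ROBO4 that binds SLIT ligands on many cell types, and it rose from 3.29, 3.39 and 3.18 FPKM to 9.46, 7.54 and 10.6 FPKM (log2(FC) 1.24, adjusted p = 0.0123 in limma), without overlap between the groups. Its ligand SLIT2 had 9.99 ± 2.07 and 10.8 ± 1.98 FPKM (SD; adjusted p = 0.799 in limma).

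Genes that tell endothelial subtypes apart had a median difference of -0.07 over 17 genes, of which GJA5 alone passed, against 6.87% of all mRNAs. The arterial Notch ligand DLL4 had the highest difference of the 17 genes (1.15) and VCAM1 the lowest (-0.98). Both were picked out after their values were seen. DLL4 went from 4.60, 4.28 and 9.22 FPKM to 13.2, 17.8 and 11.3 FPKM without overlap (adjusted p = 0.0682 in limma). VCAM1 went from 23.2, 20.5 and 24.9 FPKM to 7.28, 11.4 and 16.1 FPKM, also without overlap (adjusted p = 0.0809 in limma). The arterial genes EFNB2 and HEY1, picked out likewise, had overlapping groups (0.091 and -0.25, adjusted p = 0.789 and 0.584 in limma). Over the 17 genes the groups did not overlap for 3 higher and 1 lower, against 30.5% of all mRNAs. Of 8 lymphatic genes, 1 rose and 1 fell, where 6.87% of all mRNAs passed, and the median was -0.40. LYVE1, the hyaluronan receptor of lymphatic endothelium, which some macrophages share, fell from 104, 57.0 and 66.1 FPKM to 22.7, 30.9 and 34.4 FPKM (log2(FC) -1.31, adjusted p = 0.0349 in limma). THY1, which fibroblasts and lymphocytes carry as well, rose from 10.1 ± 3.90 to 29.7 ± 6.15 FPKM (SD; adjusted p = 0.0347 in limma), a call lost under quantile normalization (adjusted p = 0.0519). It too took its symbol from the list of genes called different.

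**Figure D4:**
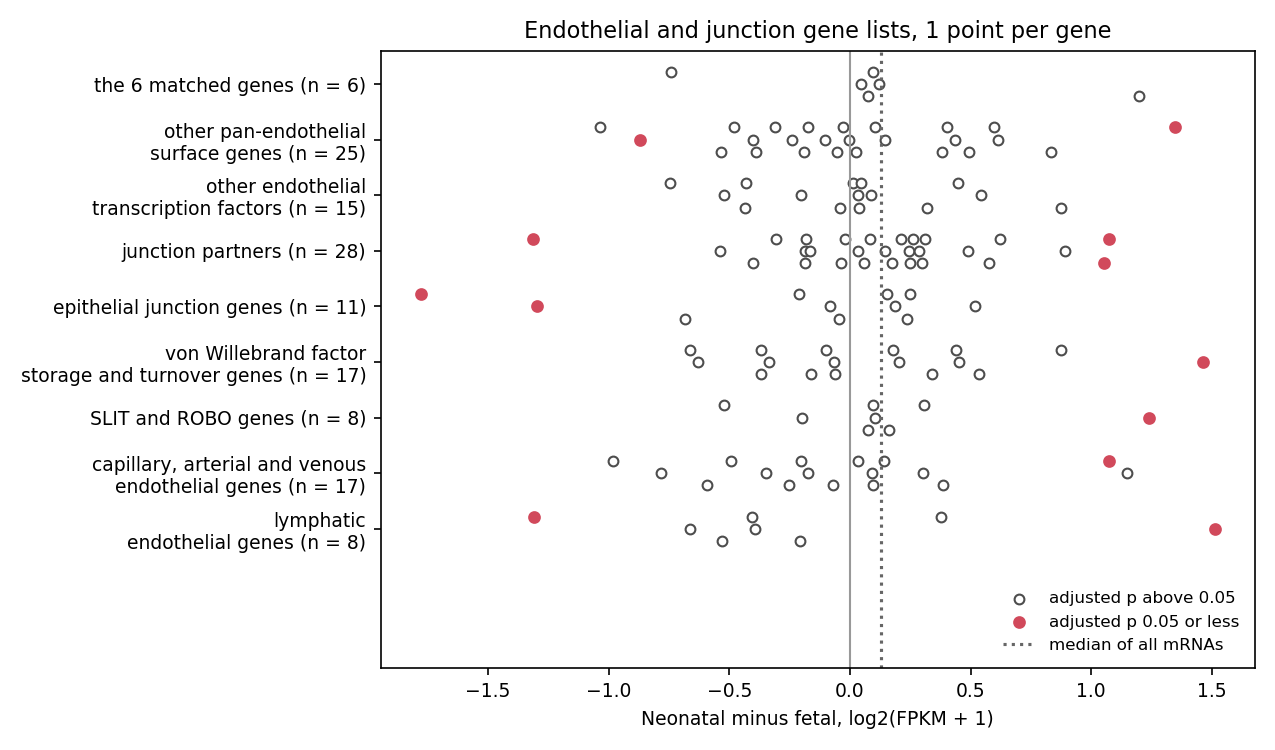
Difference between the neonatal and the fetal group on the log2(FPKM + 1) scale for each gene of the 6 matched endothelial genes and of 8 related lists, 1 point per gene, filled where the adjusted p in limma was 0.05 or less. Filled points are few, 0 among the 6 genes and 11 distinct genes over the lists (GJA5 stands in 2 of them), and each list spreads to both sides of the median of all mRNAs, drawn as a dotted line.

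Several of the genes are not limited to endothelium, and markers of other cells differed between the groups. For platelets and megakaryocytes, 4 of 14 markers had a row, and their summed FPKM was between 2.57 and 5.38 in the fetal and between 15.1 and 16.5 in the neonatal libraries. Of the 4 markers, 2 passed the threshold as higher, against 5.41% of all mRNAs. TREML1, a platelet granule receptor, was listed at 0 in Fetal1 and Fetal2 and at 0.635 FPKM in Fetal3, and it was at 4.28, 5.39 and 8.58 FPKM after birth (adjusted p = 0.00642 in limma). TUBB1, the tubulin of platelets, rose from 1.21 ± 0.369 to 4.99 ± 1.65 FPKM (SD; adjusted p = 0.0217 in limma), a call lost when any 1 library other than Neonatal1 was left out (adjusted p up to 0.105). PECAM1 and ESAM, which platelets carry, were at 134 ± 10.24 and 9.80 ± 3.06 FPKM in the same neonatal libraries (SD, n = 3 each), and the part of platelet RNA in PECAM1, ESAM and SELP was not tested.

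For leukocytes, 11 of 16 markers had a row and none was listed at 0. Their summed level was between 51.4 and 87.0 FPKM in the fetal and between 114 and 194 FPKM in the neonatal libraries, without overlap. Past the threshold were LYZ, LCP1 and SPI1, all higher in the neonatal group. Their log2(FC) was 1.96, 1.202 and 1.16, and limma gave adjusted p = 0.00471, 0.0334 and 0.0329. LCP1 lost its call without Fetal2, Fetal3, Neonatal2 or Neonatal3 (adjusted p up to 0.133), and SPI1 when any 1 library other than Neonatal1 was left out (up to 0.137). The part of leukocytes in the level of PECAM1 was not tested.

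Epithelial markers summed to between 5307 and 6216 FPKM in the fetal and between 6820 and 12340 FPKM in the neonatal libraries (11 of 13 with a row). None passed the threshold in limma, and 4 had an unadjusted p under 0.05, against 24.2% of all mRNAs. SFTPC was the largest part of this sum in every library. The groups did not overlap for 5 higher and 2 lower markers, against 30.5% of all mRNAs. The lower ones, picked out after their values were seen, were SCGB1A1 (139, 119 and 99.8 to 62.2, 0.213 and 62.0 FPKM) and EPCAM (46.5 ± 1.94 to 29.4 ± 8.64 FPKM, SD). Mesenchymal markers summed to between 1183 and 1577 FPKM and between 2130 and 2993 FPKM (9 of 12 with a row). Past the threshold among them were the smooth muscle genes ACTA2 and TAGLN, at log2(FC) 1.74 and 1.75 (limma, adjusted p = 0.0138 and 0.0317). These were 2 of the 9, against 5.41% of all mRNAs past the threshold and higher. ACTA2 lost its call without Fetal1, Fetal2, Neonatal2 or Neonatal3 (adjusted p up to 0.0682), and TAGLN when any 1 library other than Neonatal1 was left out (up to 0.137). Erythroid markers summed to between 1271 and 2718 FPKM and between 980 and 1549 FPKM, with overlap (7 of 9 with a row). None passed the threshold in limma, and 2 had an unadjusted p under 0.05, against 24.2% of all mRNAs. The hemoglobin genes HBB and HBM had log2(FC) values of -0.77 and 0.78, with adjusted p = 0.346 and 0.142 in limma. Under quantile normalization HBB passed, at -1.38 (adjusted p = 0.0260), and HBM was at 0.45 (adjusted p = 0.341). The part of these tissue differences in the levels of the 6 genes was not tested.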

How the data were processed

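Lung RNA of 3 fetal and 3 neonatal piglets was sequenced from strand-specific Ribo-Zero libraries. The authors mapped the reads to Sscrofa10.2 with TopHat 2.1.0 and computed FPKM with Cufflinks 2.2.1, and the deposited mRNA table holds 1 FPKM column per piglet. Each of the 14579 mRNAs reached FPKM above 0.5 somewhere, and 0 value columns were left unmatched. The table of lncRNAs and the authors' own fold changes were not used. Symbols came from a reference table of pig Ensembl names (9478 rows) and, where it gave none, from the study's supplementary list of differentially expressed genes (362 rows), which was held in part. No sequences were at hand for these genes, and coordinates were not printed because the annotation is of another build.

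Differences on log2(FPKM + 1) were tested over all mRNAs with limma 3.58.1, run in R 4.3.3 with its trend option, and p-values were adjusted by Benjamini-Hochberg. The threshold was an adjusted p of 0.05. The fit was tested on simulated data. Levels within a library were compared with exact permutation tests in Python 3.11.15 with scipy 1.17.1, and figures were drawn with matplotlib 3.10.9. Read counts were not used here, so only the spread between 3 piglets served as error.

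The genes and lists were chosen with earlier results of these data known. Named besides the 6 genes were, from each list, up to 4 genes past the threshold with the largest difference or, with none, the 2 of highest mean FPKM, and the 3 genes most similar to a member whose values spanned at least 1 on the log2 scale. Other genes are said to have been picked out later, as were TIE1, CTNNB1, CLDN4, CLDN18 and SLIT2, which stand beside a named gene. Alternatives were other pseudocounts, quantile normalization, median-of-ratios scaling, a stricter filter (3 samples with FPKM above 1), no trend, a block for the replicate number, and leaving out single libraries.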

Additional observations from a re-analysis of the deposited data

How the results depend on the processing

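With a stricter filter on FPKM, without a mean-variance trend, or under quantile normalization, 1 of the 6 genes passed in place of 0, which was CLDN5 in the first pair of settings (1.197 each, adjusted p = 0.0498 and 0.0393 in limma) and EMCN in the last (-1.08, adjusted p = 0.0485). With 1 library left out, between 0 and 1 passed, and the differences ranged from 1.08 to 1.43 for CLDN5, -0.94 to -0.57 for EMCN, -0.013 to 0.11 for PECAM1, -0.13 to 0.35 for ESAM, -0.064 to 0.31 for ERG and 0.065 to 0.18 for ROBO4. Median-of-ratios scaling and quantile normalization turned the direction of PECAM1 (-0.13 and -0.38), ESAM (-0.067 and -0.10), ERG (-0.092 and -0.14), ROBO4 (-0.029 and -0.013) and EPAS1 (-0.13 and -0.34), and quantile normalization that of SFTPB (-0.040); EPAS1 ranged from -0.29 to 0.37 with 1 library left out. The share of calls that were higher in the neonatal group was 78.8% over all mRNAs, 66.0% after median-of-ratios scaling and 57.9% after quantile normalization.

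Replicate numbers are shared between the groups, but the piglets came from different sows, and deviations of samples with the same number correlated at -0.0410, -0.000789 and -0.00171, so the numbers do not pair them. With the replicate number as a block, 0 of the 6 genes passed (CLDN5 at an adjusted p of 0.133 and EMCN at 0.164 in limma), the related lists had 2 calls in place of 11, and all mRNAs had 401 in place of 1001. With 1 library left out these numbers were 0 to 7 and 196 to 944. Restricted to genes named by the reference table, which was added once the data had been seen, the lists had 10 calls.

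Relative to other endothelial genes, CLDN5 lay between 0.93 and 1.21 and EMCN between -1.13 and -0.71 with 1 library left out, PECAM1 between -0.18 and -0.057, ESAM between -0.31 and 0.19, ERG between -0.21 and 0.087 and ROBO4 between -0.10 and 0.041. With the median of the other members as reference, which for ESAM, ERG and ROBO4 falls on EMCN, these 3 turned to 0.84, 0.82 and 0.86. The reference CDH5 could not be used, since its symbol matched no row. The log2 difference in the summed FPKM of the 6 genes was positive with each library left out, between 0.56 and 0.83. On average this sum went from 468 to 749 FPKM, and CLDN5 alone from 229 to 537 FPKM. The sign of the sum thus rests on CLDN5, a gene named only through the list of genes called different. With the median level of the 6 genes in place of their sum, the log2 difference was -0.33, a value set by EMCN and ERG, the middle genes by level. The median of the 6 differences was 0.084. For the epithelial markers the median level gave -0.19, and the median of their differences was 0.52. The sum of the other endothelial surface genes was -0.12 after median-of-ratios scaling and between -0.037 and 0.12 with 1 library left out. Without read counts per gene, low values such as those of SELP and CLDN8 come without a counting error.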

Other observations

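By the smallest root mean square difference of centred log2(FPKM + 1) over the 6 libraries, the genes most like CLDN5 were SPI1, a transcription factor of myeloid cells, at 0.0771, PAMR1 at 0.0863 and the cyclin-dependent kinase CDK2 at 0.1003. SPI1 had 14.9, 11.3 and 15.9 FPKM before birth against 24.05, 35.8 and 39.3 FPKM after it. The genes most like EMCN were AP3D1, a subunit of a vesicle adaptor complex, at 0.113, BTG1, a gene with antiproliferative activity, at 0.141 and MANBA, a lysosomal enzyme, at 0.143. BTG1 had 73.7, 45.6 and 59.7 FPKM in the fetal libraries and 37.4, 32.2 and 40.0 FPKM in the neonatal ones. CDK2, AP3D1 and BTG1, like CLDN5 and EMCN, were named only through the list of genes called different. None of the 6 similar genes is on the endothelial lists, and the measure describes these libraries only.

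In the RefSeq annotation of Sscrofa11.1, ESAM and ROBO4 lie near each other with 2 protein-coding genes between them, MSANTD2 and ROBO3. MSANTD2 had 3.55 and 3.33 FPKM on average in the fetal and neonatal group (adjusted p = 0.863 in limma). ERG lies next to ETS2, another ETS factor, which had 31.3 and 21.7 FPKM on average (adjusted p = 0.246 in limma). ETS2 was named only through the list of genes called different. The gene before CLDN5 is CDC45, a DNA replication gene, which rose from 7.57 to 28.1 FPKM on average (log2(FC) 1.82, adjusted p = 0.0123 in limma). A list of 10 cell cycle genes had 9 with a row, and all 9 passed as higher in limma, against 5.41% of all mRNAs. Their median difference was 2.33. CCNA2, 1 of the 9, was named only through the list of genes called different. The 4 with the largest differences were TOP2A, MCM2, CCNB1 and CCNB2, with log2(FC) 2.92, 2.69, 2.63 and 2.39.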
